A study of Mus musculus with 4 samples.

Results

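The 10 genes described here encode transcription factors of mesoderm and mesenchyme: Hand1, Hand2, Twist1, Twist2 and Tcf21 (basic helix-loop-helix), Foxf1 (forkhead), Tbx20 (T-box), Osr1 and Wt1 (zinc finger) and Prrx1 (homeobox). They were chosen by name from the 21951 protein-coding genes of the annotation, and all 10 were found in it. PRO-seq, which maps engaged RNA polymerase by extending nascent RNA in isolated chromatin, was run on E14.5 mouse tissue in 4 libraries, of which 2 are of liver and 2 of yolk sac. Each library came from a pool of 6 embryos of C57BL/6J mothers and fathers of mixed C57BL/6J and CAST/EiJ background, chosen to carry CAST/EiJ alleles at the Dlk1/Gtl2 locus. This cross is shared by both tissues, and no other treatment or genotype was named. The data are 4 lists of dREG peaks, 1 per library. A dREG peak is a stretch of the genome whose pattern of run-on reads a trained classifier scored as that of an active promoter or enhancer. The score has no unit, so it is given here as a percentile within its own list. These ranks come from lists of different lengths, so they cannot measure a change between tissues.

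Mesoderm gives rise to connective tissue, smooth muscle, mesothelium and blood vessels. The basic helix-loop-helix factors bind E-boxes as dimers with the broadly expressed E-proteins, and Id proteins take E-proteins away from them. In the yolk sac a mesodermal layer with mesothelium and vessels lies against the visceral endoderm, while in the fetal liver mesenchyme forms the mesothelium and the stellate cells among hepatoblasts and blood cells. Hand1 and Foxf1 are known for roles in extraembryonic mesoderm, and Wt1 marks mesothelium.

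RefSeq promoter sequences (GRCm38.p6, from 250 bases before to 50 bases after the start site) were found for 6 of the 10 genes. The following 5 are shown because their calls differ: Tcf21 had a peak in every list, Twist1 had one that was narrow in liver replicate 1, Hand2 and Twist2 had one in a single liver list, and Prrx1 had none. No sequence was found for Hand1 and Wt1, which were called in both yolk sac lists and neither liver list, so that pattern is not shown. Capitals mark 4 motifs searched on both strands: CANNTG is the E-box, TATAAA the TATA box, CCAAT the CCAAT box and GGGCGG the GC box. No match overlapped one of another motif, and the GC boxes of Twist2 at -118 and -112 adjoin. Hand2 lies at chr8:57320733-57321032 (plus strand), Twist1 at chr12:33957421-33957720 (plus), Twist2 at chr1:91801211-91801510 (plus), Tcf21 at chr10:22820094-22820393 (minus) and Prrx1 at chr1:163313601-163313900 (minus).
Hand2: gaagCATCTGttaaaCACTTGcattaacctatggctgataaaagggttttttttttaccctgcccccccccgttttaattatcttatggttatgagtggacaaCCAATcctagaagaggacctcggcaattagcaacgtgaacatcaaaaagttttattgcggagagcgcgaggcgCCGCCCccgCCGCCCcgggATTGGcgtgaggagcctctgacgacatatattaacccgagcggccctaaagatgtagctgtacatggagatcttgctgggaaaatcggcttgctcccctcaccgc
Twist1: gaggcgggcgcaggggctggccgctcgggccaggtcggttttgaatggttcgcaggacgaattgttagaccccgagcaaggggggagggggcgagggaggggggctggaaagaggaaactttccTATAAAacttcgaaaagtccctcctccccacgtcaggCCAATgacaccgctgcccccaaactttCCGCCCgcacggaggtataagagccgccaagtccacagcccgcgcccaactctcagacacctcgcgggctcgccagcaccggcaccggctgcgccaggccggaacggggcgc
Twist2: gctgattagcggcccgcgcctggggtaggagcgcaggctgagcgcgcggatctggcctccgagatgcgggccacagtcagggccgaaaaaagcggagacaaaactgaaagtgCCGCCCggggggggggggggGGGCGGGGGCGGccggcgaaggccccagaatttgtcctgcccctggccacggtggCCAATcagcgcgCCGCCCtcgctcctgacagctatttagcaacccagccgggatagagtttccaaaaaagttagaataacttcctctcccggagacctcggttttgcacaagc
Tcf21: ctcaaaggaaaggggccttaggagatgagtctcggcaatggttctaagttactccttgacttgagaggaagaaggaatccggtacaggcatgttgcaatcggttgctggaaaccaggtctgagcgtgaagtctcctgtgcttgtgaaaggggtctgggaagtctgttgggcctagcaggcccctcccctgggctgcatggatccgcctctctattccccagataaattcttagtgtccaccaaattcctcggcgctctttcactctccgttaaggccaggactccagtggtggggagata
Prrx1: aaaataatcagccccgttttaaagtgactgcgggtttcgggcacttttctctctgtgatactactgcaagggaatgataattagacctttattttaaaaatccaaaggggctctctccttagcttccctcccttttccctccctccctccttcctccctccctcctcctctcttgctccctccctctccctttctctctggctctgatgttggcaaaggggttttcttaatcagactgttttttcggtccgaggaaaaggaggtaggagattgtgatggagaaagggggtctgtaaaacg

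GC content in the 6 windows was 68.3% at Tbx20, 66.0% at Twist1, 64.7% at Twist2, 53.3% at Tcf21, 50.3% at Hand2 and 47.7% at Prrx1, with a median of 52.7% over all 32851 promoters of the table. Twist1 held 27 CpG dinucleotides, Tbx20 26, Twist2 25, Hand2 17, Tcf21 8 and Prrx1 6, against a median of 7. A GC box was present in 4 of the 6 windows and in 35.7% of all promoters. A CCAAT box was present in 3 (37.4% of all), and a TATA box in 1, that of Twist1 at -126 (13.6% of all). An E-box was found only at Hand2, at -246 and -235, against 72.3% of all promoters. A match is a stretch of letters, and it was not tested for binding.

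Promoter peaks, meaning peaks that overlapped the 500 bp either side of any annotated start site of a gene, were found at 4 of the 10 genes in liver replicate 1 and at 7 in liver replicate 2. The shares over all protein-coding genes were 56.1% and 57.9%, so the liver counts lay on either side of them. Both yolk sac lists had them at the same 9 genes, and 61.9% of all protein-coding genes were called in both. Twist1, Tcf21, Foxf1 and Tbx20 were called in all 4 lists. Hand1 and Wt1 were called in both yolk sac lists and in neither liver list, Hand2, Twist2 and Osr1 in both yolk sac lists and liver replicate 2, and Prrx1 in none. No member was called in liver only. Over all protein-coding genes 53.8% were called in all 4 lists, 5.25% in yolk sac only, 2.23% in yolk sac and liver replicate 2 only, 1.01% in liver only and 34.2% in none. In bulk tissue, fewer cells of a type and less transcription per cell cannot be told apart.

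**Figure D1:**
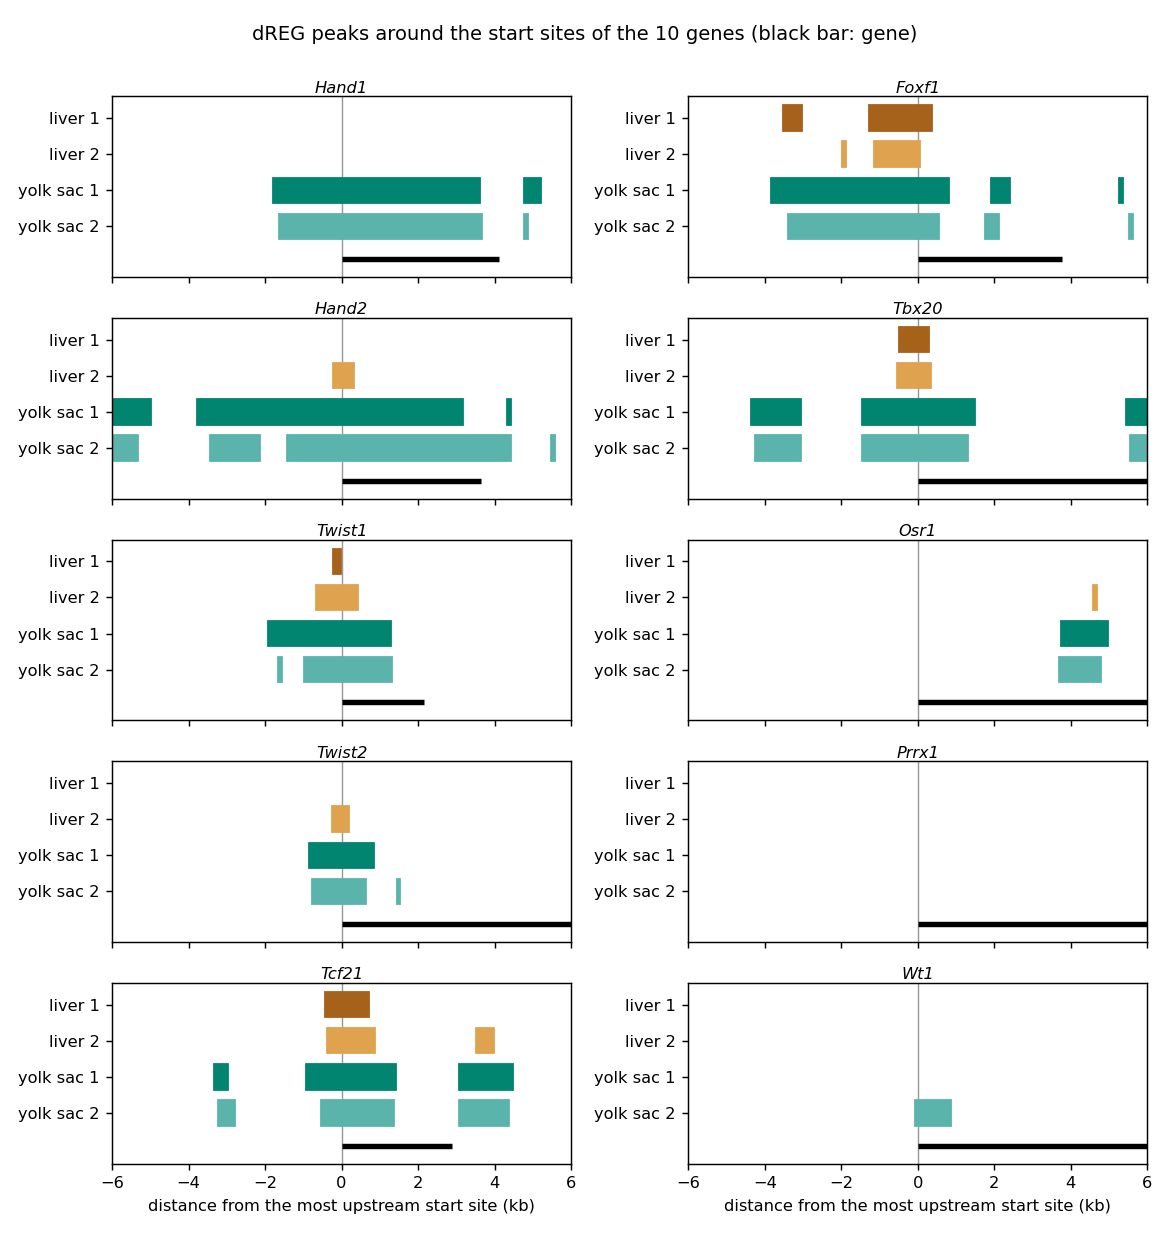
Peaks of the 4 lists within 6 kb of the most upstream start site of each gene, drawn in the direction of transcription, with 1 row per library and the gene as a black bar. Prrx1 has no peak, Hand1 has peaks in the yolk sac rows only, and the yolk sac replicate 1 peak of Wt1 lies outside the range shown.

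Hand1, which acts in extraembryonic mesoderm, trophoblast and heart, lies on chromosome 11 (57828705 to 57832818, minus strand). Its promoter peak was 5402 bp wide in yolk sac replicate 1 (57829201 to 57834602) and 5302 bp in replicate 2 (57829151 to 57834452). It covered 87.9% and 89.2% of the gene, both of its start sites included. Both widths stood at the 99.9 percentile of their own list, and the scores ranked at the 80.5 and 90.4 percentiles. The nearest peak to a Hand1 start was 19495 bp away in liver replicate 1 and 19595 bp away in replicate 2. The 3 protein-coding genes with the most similar score percentiles over the 4 lists were Pabpc5, Ttll10 and Sp6. Their summed differences from Hand1 were 2.03, 2.11 and 2.13 percentile points. Like Hand1 they had no promoter peak in liver, which was entered as 0, so the match rests on the yolk sac values.

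Hand2, the paralog of Hand1 with roles in heart, limb and autonomic neurons, lies on chromosome 8 (57320983 to 57324633, plus strand). In yolk sac its promoter peak was 6952 bp wide in replicate 1 and 5852 bp in replicate 2, and covered 86.8% and all of the gene. The scores of these peaks ranked at the 53.8 and 46.9 percentiles. Liver replicate 2 had a peak of 552 bp there (57320751 to 57321302), at the 13.2 percentile of that list. In liver replicate 1 the nearest peak was 165368 bp away. Yolk sac replicate 2 had a further peak upstream of the promoter peak (57317551 to 57318852, 93.4 percentile), in a stretch that the single peak of replicate 1 covered. The noncoding gene Hand2os1, on the opposite strand, has a start 124 bp from that of Hand2 and was called in the same 3 libraries. Peaks here cannot be assigned to either gene.

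Twist1 and Twist2 are paralogs that repress differentiation programs in mesenchyme. At Twist1 (chromosome 12, 33957671 to 33959829, plus strand) the promoter peak was 202 bp wide in liver replicate 1, 1102 bp in liver replicate 2, 3202 bp in yolk sac replicate 1 and 2302 bp in yolk sac replicate 2. The narrowest of these ended 19 bp before the start site and covered 67.3% of the promoter window printed above. Its score percentiles were 12.9 and 62.3 in liver and 47.4 and 59.1 in yolk sac, so the liver values stood on either side of both yolk sac values. At Twist2 (chromosome 1, 91801461 to 91848028, plus strand) liver replicate 2 had a peak of 452 bp at the 28.2 percentile. The yolk sac peaks there were 1702 and 1402 bp wide, at the 74.8 and 73.7 percentiles. In liver replicate 1 the nearest peak to a Twist2 start was 256009 bp away. The antisense gene Gm29100, which starts 1467 bp from Twist2, had a promoter peak in yolk sac replicate 2 only.

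Tcf21, a regulator of mesothelium-derived mesenchyme and fibroblasts, lies on chromosome 10 (22817281 to 22820174, minus strand). Its promoter peak ranked above those of the other members in liver replicate 1, though not in liver replicate 2. In liver the percentile was 78.1 in replicate 1 and 52.2 in replicate 2, and in yolk sac it was 75.7 and 67.8. The liver widths were 1152 and 1252 bp and the yolk sac widths 2352 and 1902 bp, and the values of the tissues did not overlap. The antisense gene Gm10824, which starts 4410 bp from Tcf21, had a promoter peak in both yolk sac lists and in liver replicate 2.

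Foxf1, a factor of splanchnic and extraembryonic mesoderm, lies on chromosome 8 (121084386 to 121088144, plus strand). Its promoter peak was 1652 and 1202 bp wide in liver and 4652 and 3952 bp in yolk sac, with liver percentiles of 29.4 and 32.0 and yolk sac percentiles of 67.5 and 80.7. The yolk sac peaks began 3835 and 3385 bp upstream of the start and reached over the start of Fendrr, a noncoding gene transcribed away from Foxf1 whose start lies 1276 bp from it. The promoter peak of liver replicate 1 began 1285 bp upstream and also reached the Fendrr start. Fendrr was called in all 4 lists, as was the miRNA gene Gm27530, which starts 320 bp from Foxf1. Each liver list had a further, narrower peak upstream, inside Fendrr, of 502 bp at the 19.2 percentile in replicate 1 and of 102 bp at the 4.92 percentile in replicate 2, and these lay at different places.

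Tbx20, a regulator of heart and of extraembryonic mesoderm, lies on chromosome 9 (24718138 to 24774303, minus strand). Its promoter peak was 802 and 902 bp wide in liver and 2952 and 2752 bp in yolk sac. The liver scores ranked at 35.0 and 41.5 percent of their lists, and the yolk sac scores at 59.4 and 49.5. The noncoding gene Gm29824, which starts 2164 bp away on the other strand, had no promoter peak in any list.

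Widths could be compared between tissues at the 4 genes called in every list. At all 4 the peak was wider in both yolk sac lists than in either liver list, a pattern held by 34.5% of the 11805 protein-coding genes called in all 4 lists, and 20.9% had the reverse. Twist1 measured 652 ± 636 bp in liver and 2752 ± 636 bp in yolk sac (SD, n = 2), and Tcf21 1202 ± 70.7 and 2127 ± 318 bp. Foxf1 measured 1427 ± 318 and 4302 ± 495 bp, and Tbx20 852 ± 70.7 and 2852 ± 141 bp. The yolk sac peaks at Foxf1 also covered the start of Fendrr, in a region where each liver list had 2 separate peaks. The promoter peak of liver replicate 1 covered that start as well. The widths of these peaks cannot be assigned to Foxf1 alone. The ratio of mean widths, yolk sac to liver, ran from 1.77 at Tcf21 to 4.22 at Twist1. Over all genes called in every list the median promoter width was 1702 and 1552 bp in liver and 1752 and 1602 bp in yolk sac.

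**Figure D2:**
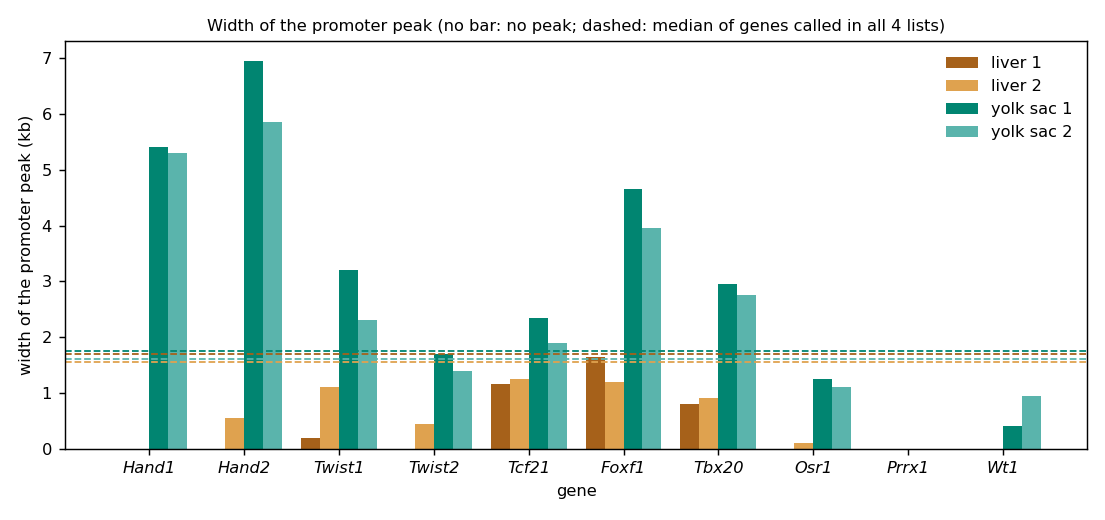
Width in kb of the promoter peak of each gene in each of the 4 libraries, with no bar where no peak was called and dashed lines at the median of the 11805 genes called in all 4 lists. The yolk sac bars of Hand1, Hand2, Twist1, Tcf21, Foxf1 and Tbx20 stand above all 4 medians, and each liver bar stays below the dashed line of its own library.

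Osr1, a factor of intermediate mesoderm, lies on chromosome 12 (9570116 to 9581500, plus strand) and has 2 annotated starts. All its promoter peaks were at the downstream start at 9574441. They measured 1252 bp at the 64.4 percentile in yolk sac replicate 1, 1102 bp at the 18.0 percentile in yolk sac replicate 2 and 102 bp at the 7.87 percentile in liver replicate 2. The last has the narrowest width in that list, begins 260 bp downstream of the start and was not counted with a promoter window of 250 bp. The upstream start, and the noncoding gene 1700022H16Rik that starts 469 bp from it, had no peak in any list.

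Wt1, a marker of mesothelium and kidney precursors, lies on chromosome 2 (105126529 to 105173616, plus strand) and has 8 annotated starts. The peaks of the yolk sac lists were at different ones. Replicate 2 had a peak of 952 bp (105126451 to 105127402) over the first start, which lies 19 bp from that of the antisense gene Wt1os, at the 50.4 percentile. Replicate 1 had a peak of 402 bp (105162751 to 105163152) at the start of an internal noncoding transcript, at the 20.5 percentile, and none at the first start. With the starts of protein-coding transcripts alone, Wt1 was thus called in yolk sac replicate 2 only. In the liver lists the nearest peak to a Wt1 start was 61243 and 61143 bp away. The noncoding genes Gm27308, Gm27636, Gm27715 and Gm27538, which start within 5 kb of a Wt1 start, had no promoter peak in any list. Prrx1, a homeobox gene of limb and craniofacial mesenchyme on chromosome 1 (163245119 to 163313710, minus strand), had no peak in its gene body either. The nearest peak to its starts was 47391 and 47791 bp away in yolk sac, and 89091 and 89491 bp away in liver. The noncoding gene Gm37644, which starts 4601 bp from a Prrx1 start, had no promoter peak in any list.

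Peaks were then counted in each locus, taken as the gene and 100 kb on either side, by the midpoint of the peak. The liver lists summed to 15 and 19 peaks over the 10 loci, against 89 and 78 for yolk sac. Liver thus averaged 17.0 ± 2.83 peaks and yolk sac 83.5 ± 7.78 (SD, n = 2), a ratio of 4.91, where the whole lists differed 1.90-fold. With the 24333 highest-scoring peaks of every list, so that lists were equally long, the yolk sac counts were 42 and 44. This cut left liver replicate 2 whole and shortened liver replicate 1 only from 24863 peaks, and the liver counts stayed at 15 and 19. How many reads each list rests on is unknown. Of the peaks in these loci, 6 and 6 in liver and 64 and 51 in yolk sac were distal, outside the gene and reaching no start window. The whole lists differ in the same direction: 52.8% and 55.8% of all liver peaks reached a start window, against 33.5% and 37.3% of all yolk sac peaks.

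The excess was spread unevenly over the genes. At Hand1 the liver lists had 3 peaks each and the yolk sac lists 19 each, and at Twist2 the counts were 0 and 1 against 16 and 13. The Hand2 locus had 0 and 1 against 11 and 11, the Foxf1 locus 3 and 4 against 14 and 14, and the Tcf21 locus 3 and 4 against 12 and 8. The Tbx20 locus had 1 and 1 against 7 and 5. Counts were low at the other 4 genes, with at most 2 peaks in a liver list and 3 in a yolk sac list. The differences of the means, 16.0 at Hand1 and 14.0 at Twist2, ranked at the 98.9 and 98.1 percentiles of all protein-coding genes, and Twist1 and Wt1, at 1.0, ranked at the 37.3. The median difference was 5.75 peaks over the members and 2.0 over all genes, while the median level was 1.25 against 4.5 in liver and 8.0 against 8.0 in yolk sac.

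At 8 of the 10 genes, all but Osr1 and Wt1, both yolk sac lists had more peaks in the locus than either liver list, as had 57.8% of all protein-coding genes. No member had fewer in both, as 4.61% of all had. For these 8 the exact two-sided permutation p over the 6 assignments of the libraries was 0.333, the smallest possible with n = 2 per tissue. The p adjusted over all protein-coding genes by Benjamini-Hochberg was 0.534. Osr1 had 1 and 2 peaks against 2 and 2 (exact permutation p = 1.0), and Wt1 had 2 and 1 against 3 and 2 (p = 0.667). With equally long lists the difference was 0.0 at Osr1 and Prrx1 and -0.5 at Twist1 and Wt1.

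**Figure D3:**
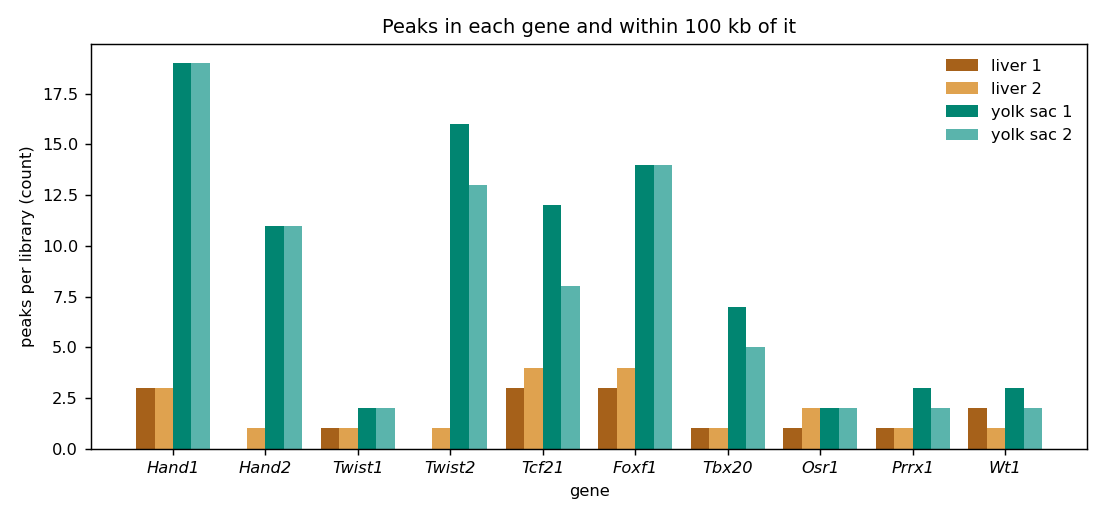
Number of peaks in each gene and within 100 kb of it, with 1 bar per library. The yolk sac bars reach 19 at Hand1 and 16 at Twist2, and no liver bar exceeds 4.

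Peaks that overlapped between lists were merged into regions. The 10 loci held 101 regions, of which 50 were called in both yolk sac lists and neither liver list, 2 in both liver lists and neither yolk sac list, 11 in all 4 and 38 in other combinations. Over the whole series 33.0% of 61095 regions were yolk-sac-only and 6.62% liver-only. With equally long lists the loci held 26 yolk-sac-only and 2 liver-only regions, and the shares over the whole series were 16.8% and 15.6%. Of the 50 yolk-sac-only regions 39 were distal, and 15 of these 39 lay in the Hand1 locus, 9 in that of Twist2, 4 each in those of Hand2, Tcf21 and Foxf1, 2 in that of Tbx20 and 1 in that of Prrx1. The loci of Twist1, Osr1 and Wt1 held none. The distal share of yolk-sac-only regions over the whole series is not given here.

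In the Hand1 locus 13 of the 15 distal yolk-sac-only regions lay upstream of the gene, with midpoints from -18.1 to -96.9 kb relative to the start, in a stretch with no annotated protein-coding gene. Those with the highest score ranks were at 57866101 to 57867602 (88.4 and 89.2 percentiles in the yolk sac lists) and at 57915651 to 57916902 (95.3 and 80.0). Both liver-only regions of the 10 loci were here, at 57811901 to 57812652 (60.4 and 34.0 percentiles in the liver lists) and at 57876151 to 57876652 (25.6 and 12.8). The second lies among the upstream yolk-sac-only regions. The promoter of Sap30l and 2010001A14Rik, at 31.1 kb, was called in all 4 lists.

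**Figure D4:**
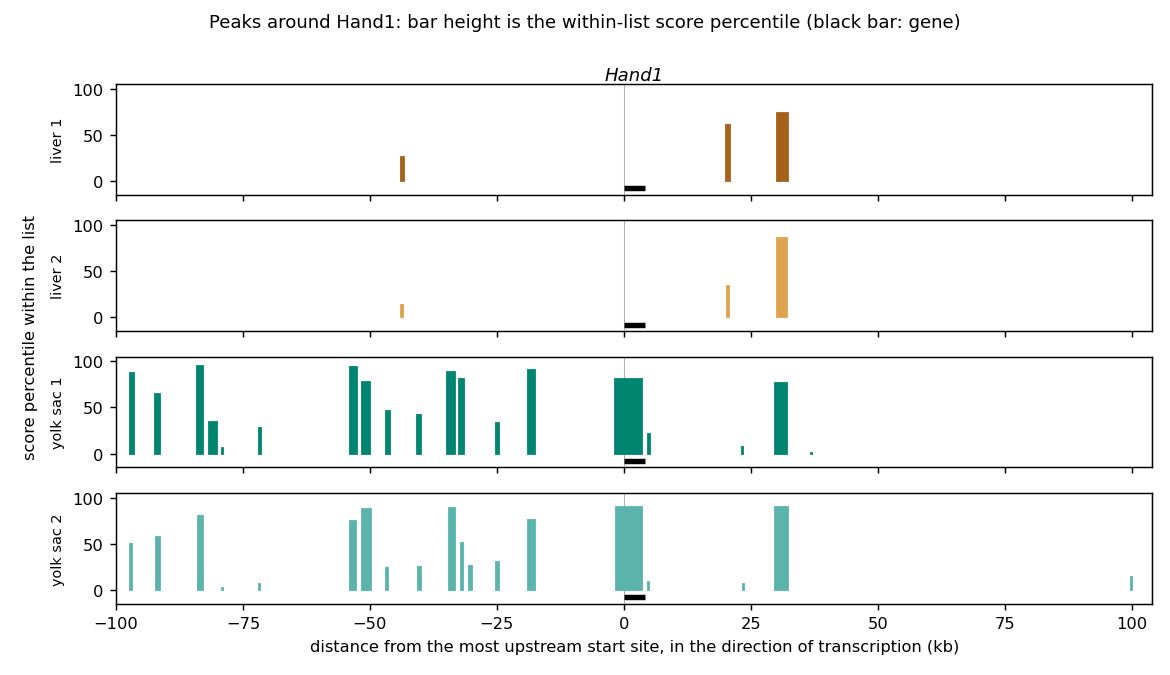
Peaks in the Hand1 locus in the 4 libraries, by distance in kb from the most upstream start in the direction of transcription, with the score percentile within each list as bar height and the gene as a black bar. The yolk sac rows hold 19 peaks each, most of them upstream, and the liver rows 3 each.

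At Twist2, 8 of the 9 distal yolk-sac-only regions lay downstream of the start. The highest-ranked were at 91893051 to 91894852 (85.2 and 88.5 percentiles) and at 91911701 to 91913452 (69.2 and 70.6), between Twist2 and Hdac4. A further region lay within an intron of Twist2 at 91825251 to 91825452 (3.09 and 0.397 percentiles). At Hand2 all 4 distal yolk-sac-only regions were downstream. The highest-ranked regions there overlapped starts of noncoding genes, at 57340451 to 57342402 (5033428I22Rik, 86.1 and 91.0 percentiles) and at 57331651 to 57335102 (5033428I22Rik and Gm34030, 65.6 and 86.4). Further yolk-sac-only regions at 57311901 to 57313252 and at 57314701 to 57316002 were at starts of Hand2os1.

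**Figure D5:**
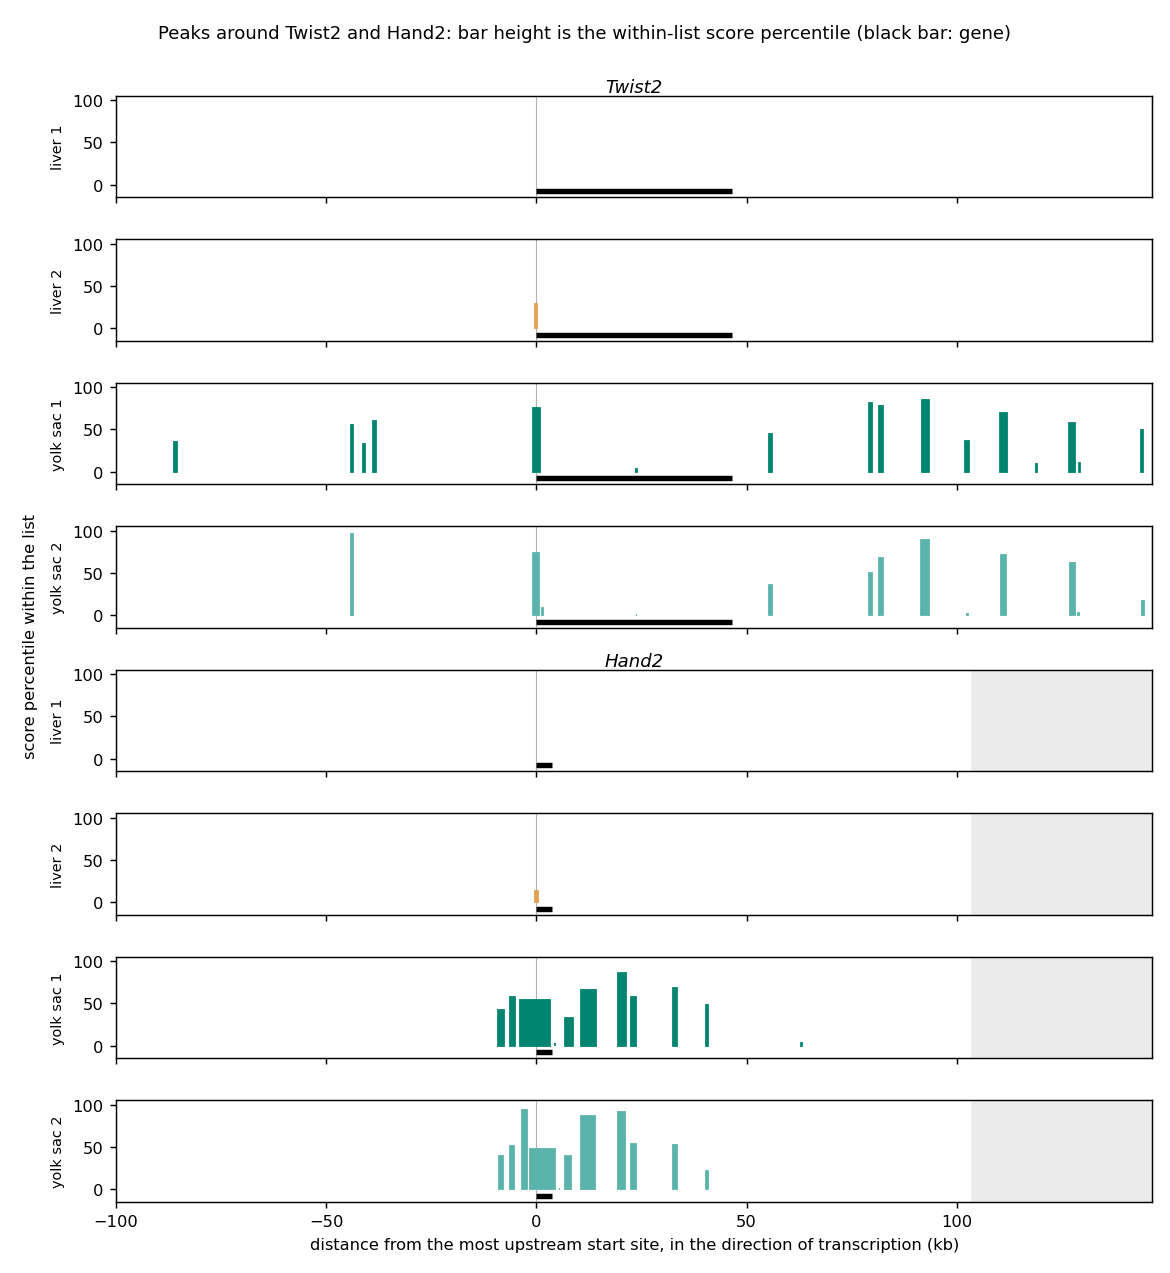
Peaks in the Twist2 and Hand2 loci in the 4 libraries, by distance in kb from the most upstream start, with the score percentile within each list as bar height, the gene as a black bar and the space outside the locus in grey. Liver replicate 1 has no peak in either locus and liver replicate 2 has 1 in each, at the promoter.

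At Tcf21 the 4 distal yolk-sac-only regions were all upstream of the gene. The region at 22851451 to 22852402, at -31.8 kb, ranked at the 97.1 and 98.9 percentiles, above every other region of the 10 loci by the lower of both values. Next among the yolk-sac-only regions of the Tcf21 locus was that at 22912601 to 22913752, with 62.1 and 53.0. A distal region at 22813351 to 22814102 was called in all 4 lists, at the 41.1 and 32.1 percentiles in liver and 87.1 and 87.0 in yolk sac. At Foxf1 the highest-ranked yolk-sac-only region was at 120985201 to 120986602 (87.6 and 87.5 percentiles), at -98.5 kb. By the lower value, the yolk-sac-only region at 121038801 to 121039652 followed (66.0 and 47.7). Downstream, the promoters of the forkhead genes Foxc2 (48.6 and 10.7 percentiles) and Foxl1 (22.7 and 6.42) were yolk-sac-only, while that of Mthfsd between them and Foxf1 was called in all 4 lists. A yolk-sac-only region at 121086151 to 121086802 overlapped an exon of Foxf1.

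In the Tbx20 locus the yolk-sac-only regions comprised 1 in an intron of Tbx20 at 24767651 to 24768852 (64.7 and 51.7 percentiles), the promoter of Dpy19l2 at 24695451 to 24696702 (73.0 and 73.2) and 2 distal ones upstream, which lie inside Gm29824. In the Osr1 locus the 1 distal region, at 9584401 to 9585702, was called in all 4 lists, with liver percentiles of 6.15 and 3.66 and yolk sac percentiles of 61.2 and 64.4. The yolk-sac-only region of the Prrx1 locus, at 163361101 to 163362552, ranked at 48.4 and 21.3. The promoters of Gorab near Prrx1, Tbpl1 near Tcf21 and Them7 near Wt1 were called in all 4 lists.

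The liver lists disagreed at 6 of the 19 regions of these loci that had a liver call, or 31.6%, against 25.7% of 27559 such regions in the whole series. In 5 of the 6 the call was in liver replicate 2 and in both yolk sac lists. These were the promoters of Hand2, Twist2 and Osr1, the Gm10824 start near Tcf21 (452 bp, 20.0 percentile) and the distal region at 121125101 to 121126252 near Foxf1 (452 bp, 25.0 percentile). The other was a 102 bp peak at 105058651 to 105058752 in the Wt1 locus, in liver replicate 1 only, at the 3.25 percentile. All 6 liver peaks ranked at or below the 28.2 percentile of their list. Over the whole series, regions called in both yolk sac lists and 1 liver list numbered 1547 with liver replicate 2 and 1438 with liver replicate 1. Leaving out liver replicate 2 made Hand2, Twist2 and Osr1 yolk-sac-only as well, and leaving out liver replicate 1 made them shared by both tissues.

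Other mesodermal and mesenchymal transcription factors were also called at more genes in liver replicate 2 than in replicate 1. Of 32 such genes, 14 had a promoter peak in liver replicate 1, 20 in liver replicate 2, 27 in yolk sac replicate 1 and 26 in yolk sac replicate 2. Over all protein-coding genes these shares were 56.1%, 57.9%, 63.8% and 62.4%, and the count in liver replicate 2 was close to its share. The 5 yolk-sac-only genes were Foxc2 and Foxl1, which neighbour Foxf1, Prrx2, the paralog of Prrx1, and Msc and Msx2. None was liver-only, 13 were called in all 4 lists and 5 in none. A further 7 were called in both yolk sac lists and liver replicate 2 only, and 1 in both yolk sac lists and liver replicate 1 only, patterns held by 2.23% and 0.629% of all protein-coding genes. Of all protein-coding genes, 5.25% were yolk-sac-only, 1.01% liver-only, 53.8% called in all 4 lists and 34.2% in none. The E-proteins Tcf3, Tcf4 and Tcf12, which pair with the basic helix-loop-helix factors, and their inhibitors Id1, Id2, Id3 and Id4 had promoter peaks in all 4 lists. The same held for 53.8% of all protein-coding genes.

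Marker genes of the cell types in these tissues were read beside the members. These lists are short, and counts such as 5 of 8 or 4 of 7 are near the shares of all protein-coding genes called in each library, given above. Promoter peaks of fibroblast and mesenchyme markers numbered 5 of 8 in liver replicate 1 and 8 of 8 in each of the other 3 lists. Pdgfra, Dcn and Lum were those absent from liver replicate 1. Hepatic stellate markers numbered 4, 6, 4 and 5 of 7 in liver replicates 1 and 2 and yolk sac replicates 1 and 2, and smooth muscle markers 1, 2, 3 and 3 of 5. Mesothelial markers numbered 1 and 1 of 7 in liver and 5 and 5 in yolk sac, with Msln, Upk3b, Upk1b and Krt19 yolk-sac-only. That pattern was held by 5.25% of all protein-coding genes. Endothelial markers numbered 4 and 5 of 6 in liver and 6 and 6 in yolk sac. Of the erythroid markers 6 were in the annotation, with 6 and 6 called against 2 and 2, hepatocyte markers 7 and 6 of 8 against 6 and 6, and yolk sac endoderm markers 6 and 5 of 8 against 8 and 8, each given as liver against yolk sac. The part of these cell types in the peaks at the members was not tested.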

How the data were processed

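PRO-seq was deposited by the authors as 1 dREG peak list per library, from 2 liver and 2 yolk sac libraries of pooled tissue. Each list gives chromosome, start, end and a score without a unit, deposited as the authors' own value per peak. No scaling between libraries is recorded, so it served for ranks and filters inside each list alone. The submitters' processing notes name mm10, Bowtie2 and bedtools. The dREG version and filters are not given in the sources used here. Liver lists held 24863 and 24333 peaks, yolk sac lists 50525 and 43055, with no score below 0.80, no width below 102 bp and no gap below 548 bp. Read depth is unknown, so no counting interval is given. Positions are 1-based.

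Names and start sites came from GENCODE M21 (GRCm38). Peaks over start windows made up 33.5% to 55.8% of a list, and 11.1% to 14.6% after a shift by 5 kb. Peaks were matched to start windows (500 bp), loci (100 kb flanks, by midpoint) and regions merged at 1 bp overlap, using Python 3.11.15, numpy 2.4.6 and pandas 2.3.3, with functions tested on simulated lists. A score percentile is the rank within a list. Where several peaks reached a start window the highest-scoring one was taken. Locus counts were compared by an exact permutation test, whose smallest p is 0.333. The labels do not say that the tissue pools were separate between replicates, so the spread may be technical. Alternatives were score filters, windows, flanks, merging, left-out libraries and a replicate block.

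The members and lists were chosen with earlier results of these data known. Named were all members, noncoding genes starting within 5 kb, genes whose promoter peaks lie in a locus, list genes called in 1 tissue only, the 2 highest-ranked regions per locus and direction, regions in 1 liver list only and the 3 genes most like Hand1. Further regions and list genes were named after their values were seen.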

Additional observations from a re-analysis of the deposited data

How the results depend on the processing

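The difference in mean number of members with a promoter peak (3.5 more in yolk sac) kept its direction under all alternatives run, between 2.0 and 5.0. It moved by no more than the spread between replicates, which is wide because the liver lists had 4 and 7. With equally long lists the counts were 4 and 7 in liver and 7 and 8 in yolk sac. Liver replicate 2 then equalled yolk sac replicate 1, so the tissues were not separated. Values that moved further were the following. With the higher-scoring 50% of each list, the log2 ratio of peaks in the loci was 2.88 (2.30 with all peaks), and there were 30 yolk-sac-only and 0 liver-only regions (50 and 2). With equally long lists the log2 ratio was 1.34, against 0.0 for the whole lists, and there were 26 yolk-sac-only regions. With flanks of 200 kb the log2 ratio was 1.69, with 80 yolk-sac-only and 10 liver-only regions. The cause of these shifts was not tested. Without 1 library at a time, the log2 ratio ran from 2.14 to 2.48, the yolk-sac-only count from 50 to 73 and the liver-only count from 2 to 3. The yolk-sac-only share of all regions in the series, 33.0% with every library, moved too: it was 46.3% without yolk sac replicate 1 and 52.6% without yolk sac replicate 2, where the loci held 62 and 73. In the higher-scoring 50% it was 31.1%.

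The peak number reversed at Twist1 and Wt1 (-0.5 each) with equally long lists, and kept its direction or fell to 0 in the other alternatives run. The difference between tissues in a promoter call moved in 15 recalculations for single genes and stayed in 75. A difference can stay while the calls themselves change, as at Hand2, Osr1 and Twist1 in the higher-scoring 50%. In the higher-scoring 50%, Foxf1 and Twist2 became yolk-sac-only, Hand2, Tbx20 and Osr1 were called in yolk sac replicate 1 only, Wt1 in yolk sac replicate 2 only, and Twist1 in replicate 2 of both tissues. With equally long lists, Twist1 and Wt1 lost the call in yolk sac replicate 1 and Osr1 that in yolk sac replicate 2. Hand1, Tcf21 and Prrx1 had the same calls under both filters. With the widest promoter window the width difference at Tbx20 fell from 2000 to 250 bp, because another peak was then taken. Replicate numbers are shared by the tissues, but the correlation of deviations between same-numbered lists was -0.0130 over 13246 windows, and nothing names a pairing. With the replicate block, the log2 ratio was 2.30 and the smallest p possible is 0.5.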
